A study of Homo sapiens with 3 samples.

Results

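The genes described here supply the deoxynucleotides of DNA or keep uracil out of it: RRM1, RRM2, RRM2B, TYMS, TK1, DCK, DUT, SAMHD1 and UNG. They were chosen by gene symbol, and every probe whose platform annotation carries one of these 9 symbols was taken, which gave 15 of the 47323 probes on the array. Expression was measured in 293T cells, a human embryonic kidney line that carries the SV40 large T antigen, on 3 Illumina BeadChip arrays. One array holds RNA of cells transfected with siTARBP2-1 (siRNA 1), another of cells transfected with siTARBP2-2 (siRNA 2), and the last of cells given siControl. All 3 cultures were of the same line, received a lipid transfection reagent and were harvested at 48 h, and both siRNAs target TARBP2, which binds double-stranded RNA and works with DICER1 in microRNA processing. The sample labels name the control an siRNA control, whereas the series design calls it mock-transfected. Each condition is 1 array of 1 line, and both siRNA differences are taken against the same control array. The knockdown arrays differ in the siRNA given and no condition has a replicate culture in the labels, so p-values rest on the spread between the siRNA arrays, in which siRNA and technical differences cannot be told apart.

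Ribonucleotide reductase makes deoxynucleotides from ribonucleotides and joins a large subunit, RRM1, to a small subunit, either RRM2, made in S phase, or RRM2B, which p53 induces. Thymidylate comes from dUMP through TYMS or from thymidine through the salvage kinase TK1, and DCK phosphorylates deoxycytidine and the purine deoxynucleosides. DUT, the dUTPase, breaks down dUTP before DNA polymerases can use it, UNG cuts uracil out of DNA, and SAMHD1 breaks down deoxynucleoside triphosphates.

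Mean raw signal was 680.4 with siRNA 1, 514.3 with siRNA 2 and 528.5 in the control, and 18449 to 19155 probes per array were above background (detection p under 0.01). The small number of arrays limits all values in precision. TARBP2 itself, at the probe ILMN_1729767, had normalized log2 signals of 6.27 with siRNA 1, 6.09 with siRNA 2 and 8.38 in the control. Its differences from control were -2.12 and -2.30 at this probe, and -1.62 and -1.72 in the authors' deposited normalized values. The second TARBP2 probe, ILMN_2310253, also above background on all 3 arrays, was at -1.63 and -1.85. Of 7 genes listed as markers of 293T, 5 were above background on all 3 arrays, KRT18 on 2 and PAX2 on none, so PAX2, a transcription factor of the embryonic kidney, was not detectable here. The summed raw signal of these 7 ran from 11653 with siRNA 2 to 20260 with siRNA 1, of which VIM alone gave 7397.6 and 13190.3. Of 8 markers of blood, endothelium, liver and fibroblasts, COL1A1 was above background on all arrays, ALB on 1 and the others on none or without a named probe, with summed raw signals of 491.8 to 535.6.

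Signals below are background corrected, quantile normalized and on the log2 scale, and a difference is the siRNA array minus the control array. Of the 15 probes 12 were above background on all 3 arrays, 1 on some and 2 on none. One probe stood for each gene in the test, the one with the highest mean signal, and 8 of the 9 genes passed the filter of detection on at least 1 array. Each of these 8 was above background on all 3 arrays. SAMHD1 was the gene that did not pass.

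**Figure D1:**
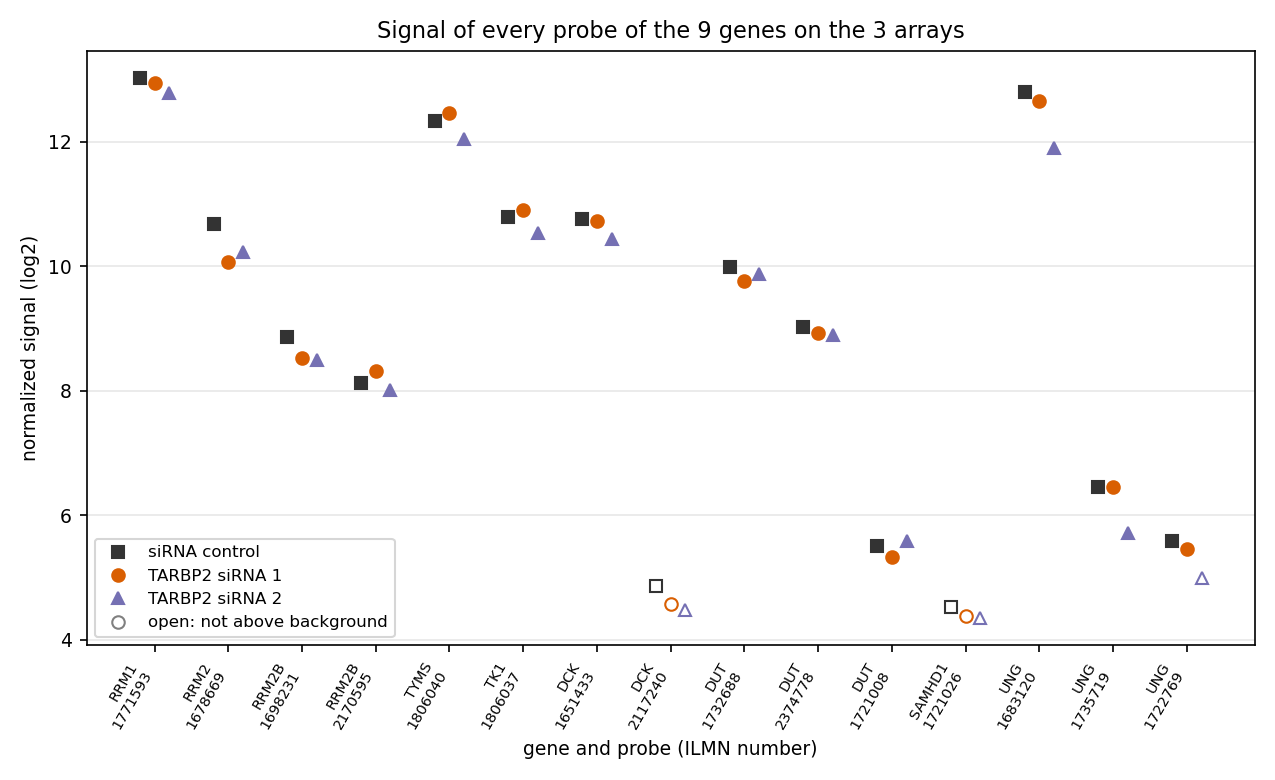
Normalized log2 signal of each of the 15 probes on the 3 arrays, with 1 point per array and open symbols where the probe was not above background. RRM2 lies lower on both siRNA arrays, the UNG probes lie lower on the siRNA 2 array, and both SAMHD1 and the second DCK probe are open throughout. Levels of different probes are not comparable.

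None of the 8 genes passed limma's moderated test of the 2 knockdown arrays against the control array (Benjamini-Hochberg adjusted p = 0.9999 for each, over 11768 genes). Of all genes tested 0% passed, and 1.73% had an unadjusted p under 0.05, which none of the 8 had. TARBP2, the target of both siRNAs, did not pass either, with a mean of -2.21 (limma adjusted p = 0.328). The test thus did not call even a difference of that size. By the fixed rule of 1.5-fold, which has no replicate check, RRM2 was lower with siRNA 1, 1 of 8, where 1.36% of all genes were lower by that much. UNG was lower with siRNA 2, 1 of 8, where 4.88% of all genes were. No member was higher by 1.5-fold with either siRNA (all genes 1.26% and 5.27%). The median difference over the 8 was -0.11 with siRNA 1 and -0.31 with siRNA 2, beside 0.00 and 0.03 over all genes tested. With siRNA 1, 6 of 8 were below control and 2 above, and 49.1% of all genes were below. With siRNA 2, 8 of 8 were below control, and 46% of all genes were. The members were chosen with earlier results of these data known, so these counts and medians are a description only. Quantile normalization forces equal distributions, and with array medians set equal instead, 1 of 8 was below control with siRNA 1 and 8 of 8 with siRNA 2. That scaling moved the median of all genes to 0.31 with siRNA 1 and -0.06 with siRNA 2, and relative to those medians 6 of 8 and 8 of 8 members were lower.

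**Figure D2:**
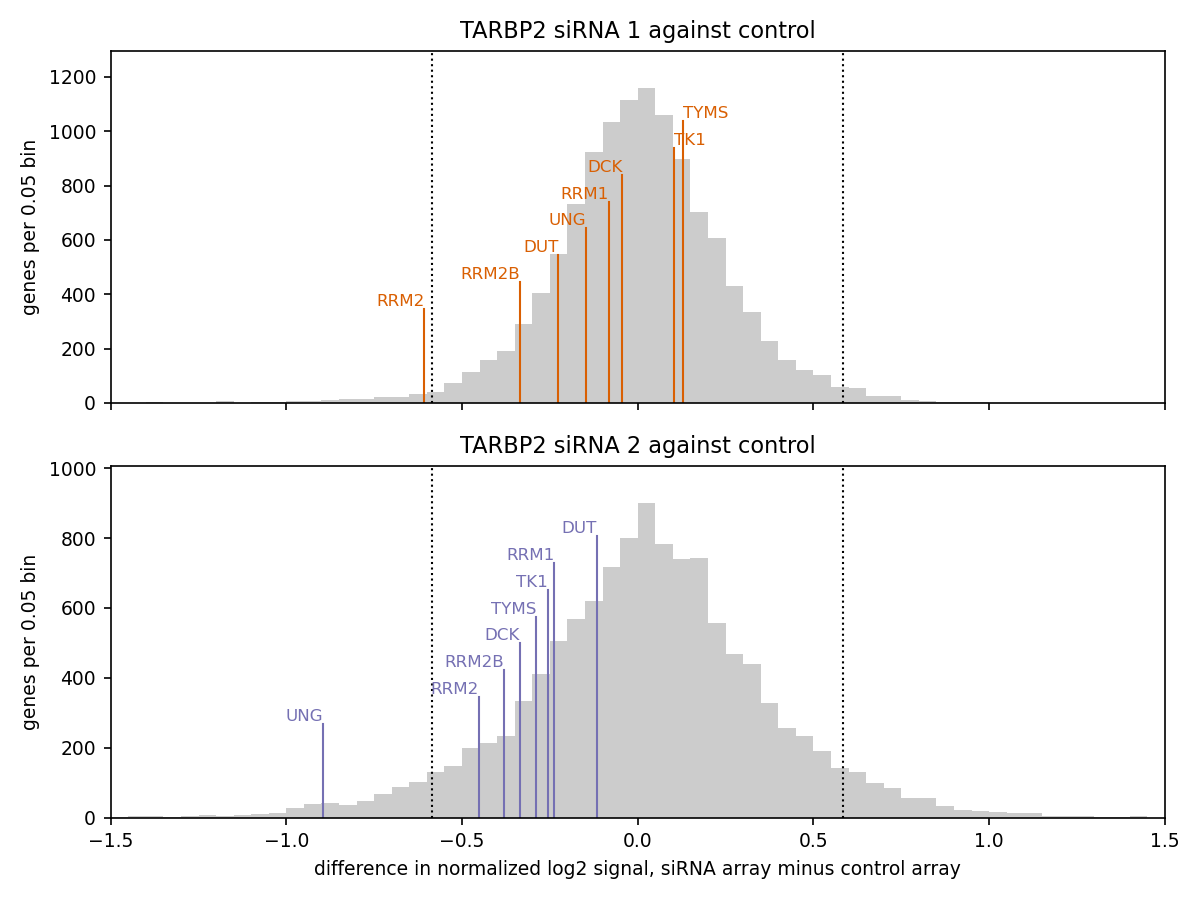
Number of genes per bin of 0.05 in the difference from control (log2, siRNA array minus control array), for siRNA 1 above and siRNA 2 below, over 11768 genes, with the 8 tested members as labelled lines whose heights carry no value. Dotted lines mark 1.5-fold. RRM2 at -0.61 is past the line with siRNA 1 and UNG at -0.90 is past it with siRNA 2.

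Among the reductase subunits the S-phase small subunit showed the largest difference. RRM2 (ILMN_1678669) had raw signals of 1397.8 with siRNA 1, 1040.7 with siRNA 2 and 1514.7 in the control, which became normalized log2 signals of 10.07, 10.22 and 10.67. Both siRNA arrays lay below the control array, and they were closer to each other than either was to control. The differences were -0.61 and -0.45, or 1.52-fold and 1.37-fold lower. Their mean was -0.53 ± 0.25 (moderated SE, n = 2 knocked-down arrays and 1 control) and did not pass (limma adjusted p = 0.9999, unadjusted p = 0.0696). This SE borrows most of its information from the other genes on the arrays. With siRNA 1 RRM2 ranked 147th from the lowest difference among 11768 genes, with siRNA 2 it ranked 997th. With equal array medians its differences were -0.27 and -0.57, which are -0.58 and -0.51 relative to the median of all genes. In RNA from a whole culture, fewer cells in S phase and less RRM2 transcript per cell cannot be told apart.

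RRM1, the large subunit that holds the catalytic and allosteric sites, was nearer to control. Its normalized log2 signals at ILMN_1771593 were 12.94 with siRNA 1, 12.79 with siRNA 2 and 13.02 in the control, so the control was highest and siRNA 2 lowest. The differences were -0.08 and -0.24, with a mean of -0.16 ± 0.25 (SE, n = 2 against 1; limma adjusted p = 0.9999).

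RRM2B, the small subunit used outside S phase, gave answers that depended on the probe. At ILMN_1698231 the normalized log2 signals were 8.53 with siRNA 1, 8.49 with siRNA 2 and 8.87 in the control, and both siRNA arrays were below control, by -0.34 and -0.38. At ILMN_2170595 they were 8.32, 8.01 and 8.12, so that siRNA 1 lay above control (0.20) and siRNA 2 below it (-0.11). The mean at the first probe was -0.36 ± 0.25 (SE, n = 2 against 1; limma adjusted p = 0.9999), and at the second it was 0.04. The gap between the probes was 0.54 for siRNA 1 and 0.27 for siRNA 2. Over 2910 genes with several probes above background on all arrays, the median gap was 0.19 for siRNA 1 and 0.18 for siRNA 2, and 93.2% of these genes had a smaller gap than RRM2B for siRNA 1. With the mean of the probes RRM2B was at -0.07 and -0.25, so its level with siRNA 1 is not settled by these arrays.

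The RefSeq promoter window of RRM2 (GRCh38.p14) is shown because RRM2 was the reductase subunit furthest from control. It runs from 250 bases before to 50 bases after an annotated start, on the plus strand at chr2:10122489-10122788, 5′ to 3′, with capitals for the CCAAT box.
RRM2: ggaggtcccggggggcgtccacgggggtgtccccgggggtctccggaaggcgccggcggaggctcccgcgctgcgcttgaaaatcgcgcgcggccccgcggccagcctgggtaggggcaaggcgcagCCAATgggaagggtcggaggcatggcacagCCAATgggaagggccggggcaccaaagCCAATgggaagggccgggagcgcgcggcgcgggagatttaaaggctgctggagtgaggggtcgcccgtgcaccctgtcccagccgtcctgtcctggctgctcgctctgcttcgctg
It holds 3 CCAAT boxes on the gene strand, whose first bases lie 123, 93 and 66 bases before the start. The letters searched as E2F-type (TTTGGCGC, TTTCCCGC, TTTGCCGC and TTTCGCGC, on both strands) are not in this window. Another RefSeq start of RRM2 has an overlapping window, chr2:10122318-10122617, which is not printed and holds 1 CCAAT box, whose first base lies 249 bases before that start.

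The thymidylate and salvage enzymes stood above control with siRNA 1 or close to it, and below control with siRNA 2. TYMS (ILMN_1806040), which methylates dUMP and is the target of fluoropyrimidine drugs, had normalized log2 signals of 12.46 with siRNA 1, 12.04 with siRNA 2 and 12.33 in the control. The siRNA 1 array was thus the highest and the siRNA 2 array the lowest. Its differences were 0.13 and -0.29, with a mean of -0.08 ± 0.28 (SE, n = 2 against 1; limma adjusted p = 0.9999), and the siRNA arrays differed from each other by 0.42.

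TK1, the cytosolic thymidine kinase of cycling cells, had the same order of arrays. At ILMN_1806037 its normalized log2 signals were 10.90 with siRNA 1, 10.54 with siRNA 2 and 10.79 in the control, with differences of 0.10 and -0.26. The mean was -0.08 ± 0.27 (SE, n = 2 against 1; limma adjusted p = 0.9999). For TYMS and TK1 the sign of the mean turned with equal array medians, to 0.03 and 0.04, where the median of all genes was 0.12.

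DCK, the kinase that also activates cytarabine and gemcitabine, was at control level with siRNA 1. Its signals at ILMN_1651433 were 10.72 with siRNA 1, 10.43 with siRNA 2 and 10.76 in the control (log2), with differences of -0.04 and -0.33. With equal array medians the DCK differences were 0.29 and -0.44, which are -0.02 and -0.38 relative to the median of all genes. The mean was -0.19 ± 0.26 (SE, n = 2 against 1; limma adjusted p = 0.9999). The second DCK probe, ILMN_2117240, was not above background on any array (raw signals 64.5, 55.9 and 68.5) and gives no fold.

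The dUTPase DUT differed little from control at any of its 3 probes. At ILMN_1732688 the normalized log2 signals were 9.76 with siRNA 1, 9.87 with siRNA 2 and 9.98 in the control, and at ILMN_2374778 they were 8.92, 8.89 and 9.02. Both probes put the control highest. The differences were -0.23 and -0.12 at the first and -0.10 and -0.13 at the second. The dimmest DUT probe, ILMN_1721008, gave 5.34, 5.58 and 5.50, with differences of -0.17 and 0.08. The mean at the first probe was -0.17 ± 0.25 (SE, n = 2 against 1; limma adjusted p = 0.9999).

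UNG was lower on the siRNA 2 array at each of its 3 probes and close to control on the siRNA 1 array. At ILMN_1683120 the raw signals were 7874.4 with siRNA 1, 3335.9 with siRNA 2 and 6441.6 in the control, and the normalized log2 signals 12.65, 11.90 and 12.79. The siRNA 2 array stood apart from the other two. It was 0.90 log2 units below control (-0.90, 1.86-fold lower), and siRNA 1 was at -0.15. The mean was -0.52 ± 0.34 (SE, n = 2 against 1) and did not pass (limma adjusted p = 0.9999, unadjusted p = 0.164).

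On the dimmer UNG probes the siRNA 2 array was lowest as well. ILMN_1735719, annotated to the transcript NM_080911, which encodes the nuclear form UNG2, had normalized log2 signals of 6.45 with siRNA 1, 5.72 with siRNA 2 and 6.45 in the control, with differences of 0.00 and -0.73. ILMN_1722769, annotated like the first probe to NM_003362, which encodes the mitochondrial form UNG1, had raw signals of 95.5, 71.4 and 87 in the same order. With siRNA 1 it was at -0.12. It was not above background with siRNA 2, so UNG was at least 1.15-fold lower there by this probe. The annotation names 1 transcript per probe and does not tell whether a probe reads that transcript alone. With probes as features, 2 UNG probes were lower by 1.5-fold with siRNA 2, where 5.9% of 15873 probes were. The size depended on the scale for the dim probe: with the authors' deposited normalized values the differences with siRNA 2 were -0.88 at the first probe and -0.41 at ILMN_1735719. UNG ranked 148th from the lowest difference among 11768 genes with siRNA 2 and 2762nd with siRNA 1. Between the siRNA arrays UNG was 0.75 log2 units higher with siRNA 1, the only member past 1.5-fold in that comparison, where 5.12% of all genes were. With equal array medians the differences were 0.14 and -0.96, which are -0.17 and -0.91 relative to the median of all genes.

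Both RefSeq promoter windows of UNG (GRCh38.p14, plus strand, 5′ to 3′) are shown because the UNG probes are annotated to transcripts that start at different sites. The upstream window is chr12:109097347-109097646 and the downstream window is chr12:109097922-109098221. Capitals mark CCAAT boxes and, in the downstream window, the E2F-type letters TTTGCCGC.
UNG upstream: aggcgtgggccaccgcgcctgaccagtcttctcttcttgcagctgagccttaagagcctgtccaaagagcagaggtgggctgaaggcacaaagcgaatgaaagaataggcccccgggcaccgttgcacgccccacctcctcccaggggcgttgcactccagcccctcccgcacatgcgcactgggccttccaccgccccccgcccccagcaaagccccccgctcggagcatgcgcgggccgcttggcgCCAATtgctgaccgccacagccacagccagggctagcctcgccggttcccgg
UNG downstream: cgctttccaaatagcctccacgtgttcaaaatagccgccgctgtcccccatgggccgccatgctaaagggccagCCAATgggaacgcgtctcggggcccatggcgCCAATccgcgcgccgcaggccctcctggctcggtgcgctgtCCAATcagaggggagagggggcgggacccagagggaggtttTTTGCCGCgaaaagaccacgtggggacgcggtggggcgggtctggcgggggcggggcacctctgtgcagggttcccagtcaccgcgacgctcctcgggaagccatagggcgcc
The upstream window holds 1 CCAAT box, whose first base lies 2 bases before the start. In the downstream window 3 CCAAT boxes begin 176, 145 and 104 bases before the start, and the E2F-type letters begin 63 bases before it. The 8 genes other than RRM2B had 14 windows, some of which overlap. RRM2B was left out of this search, whereas the shares over all windows had no such exclusion. The E2F-type letters were in 4 of the 14, one each of DCK, UNG, DUT and TYMS, and in 3.31% of all 35116 windows of the table. CCAAT on either strand was in 7 of the 14 and in 34.6% of all windows. A match of letters is a description of the sequence and does not show a bound site, and the absence of a match says only that these letters are not in the window.

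SAMHD1, the triphosphohydrolase that also restricts retroviruses in myeloid cells, was not above background on any array. Its only probe, ILMN_1721026, had raw signals of 52.9 with siRNA 1, 48.3 with siRNA 2 and 58.2 in the control, with detection p-values of 0.81, 0.89 and 0.45. All 3 arrays were alike in this, and no fold is given. Its transcript was not detectable by this probe, which does not show that it is absent.

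Between the siRNA arrays, 6 of the 8 tested genes were higher with siRNA 1 than with siRNA 2 and the median gap was 0.22, beside 45.9% of all genes and a median of -0.03. The widest gaps were those of UNG (0.75), TYMS (0.42), TK1 (0.36) and DCK (0.29). RRM2 and DUT ran the other way, at -0.15 and -0.11. UNG, TYMS, TK1, DCK and RRM1 are among the 2942 genes of highest signal, over which the median difference was 0.00 with siRNA 1 and 0.01 with siRNA 2. The raw mean signal also differed between these arrays, and its part in the gaps was not tested.

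**Figure D3:**
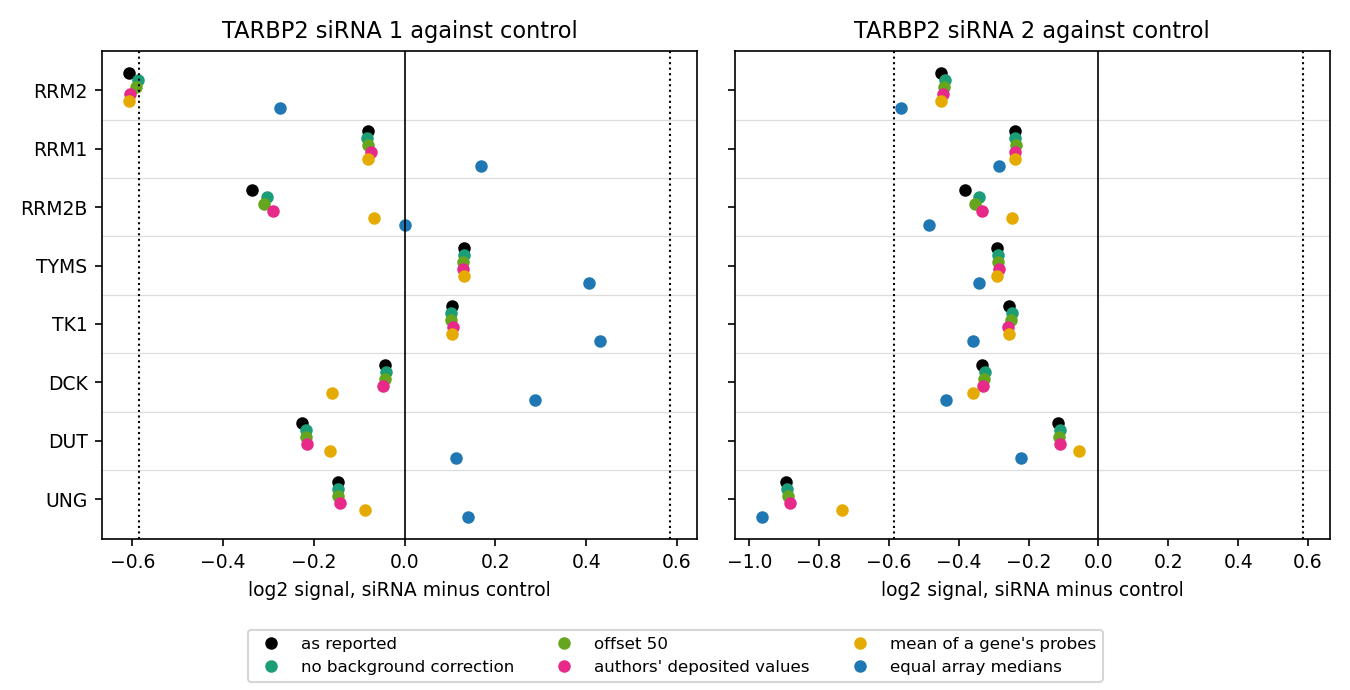
Difference from control (log2, siRNA array minus control array) of the 8 tested genes, for siRNA 1 at left and siRNA 2 at right, with 1 point per way of processing. Dotted lines mark 1.5-fold and the solid line no difference. Setting array medians equal moves all 8 genes to the right with siRNA 1 and to the left with siRNA 2, whereas RRM2 and UNG stay the lowest of the 8 in the panels of siRNA 1 and siRNA 2, respectively.

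Other genes of nucleotide metabolism and base excision repair were read from 6 lists of 70 genes. Of these, 63 were tested, 5 had no named probe and 2 were not above background. None passed limma's test (0% of all genes did), and the median over the 63 was 0.03 with siRNA 1 and 0.01 with siRNA 2, beside 0.00 and 0.03 over all genes tested. With siRNA 1, 0 of 63 were lower by 1.5-fold (all genes 1.36%) and 1, NT5M, was higher (1.26%). With siRNA 2, CMPK1 and UCK1, 2 of 63, were lower (4.88%) and NEIL1 and MBD4, also 2, were higher (5.27%). NT5M and NEIL1 count here by their measured signals, though the control was not above background for either and their folds have only the bounds given below.

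No gene of the routes that make nucleotides from small precursors passed the test. De novo pyrimidine and CTP synthesis had medians of 0.09 with siRNA 1 and 0.01 with siRNA 2 over 6 genes. Within it CMPK1, the kinase of UMP and CMP, was at -0.25 and -0.59, and DHODH, the mitochondrial dehydrogenase of the pathway, at 0.30 and 0.13. De novo purine synthesis had medians of -0.02 and -0.05 over 11 genes, with PRPS2, which makes the activated ribose, at -0.17 and -0.32 and PPAT, the first committed enzyme, at 0.12 and -0.47. The thymidylate folate cycle, which feeds TYMS, had medians of 0.00 and -0.03 over 6 genes. SLC19A1, the reduced folate carrier, was at 0.26 and 0.15, and DCTD, which deaminates dCMP to the dUMP that TYMS uses, at -0.06 and -0.21.

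No salvage or breakdown gene passed the test either. Nucleoside salvage and nucleotide kinases had medians of 0.04 with siRNA 1 and -0.03 with siRNA 2 over 14 genes. UCK1, a uridine and cytidine kinase, was at 0.10 and -0.91. Its only probe is dim (normalized log2 signal 6.75 in the control and 5.85 with siRNA 2), and the offset used widens differences of dim probes. ADK, the adenosine kinase, was at 0.13 and 0.55, but the means of ADK's detected probes ran from 0.06 to 0.34. Nucleotide breakdown and pool sanitation had medians of 0.04 and 0.14 over 10 genes, with 4 and 2 of 10 below control (all genes 49.1% and 46%). ADA, the adenosine deaminase, was at 0.18 and 0.48. NT5M, a mitochondrial deoxynucleotidase, was above background with siRNA 1 alone, where it was at least 1.03-fold higher.

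Base excision repair genes besides UNG had medians of 0.03 with siRNA 1 and 0.04 with siRNA 2 over 16 genes. NEIL1, a glycosylase of oxidized bases, was not above background in the control, and the siRNA 1 and siRNA 2 arrays were at least 1.20-fold and at least 1.46-fold higher, respectively. The other glycosylases that take uracil from DNA did not share one direction. MBD4 was at 0.13 and 0.59, SMUG1 at -0.06 and 0.17, and TDG at 0.06 and -0.31. SMUG1 and TDG were named for their role, after their values were seen. APEX1, the endonuclease that cuts the site a glycosylase leaves, was at 0.03 and 0.02, also named after its values were seen.

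**Figure D4:**
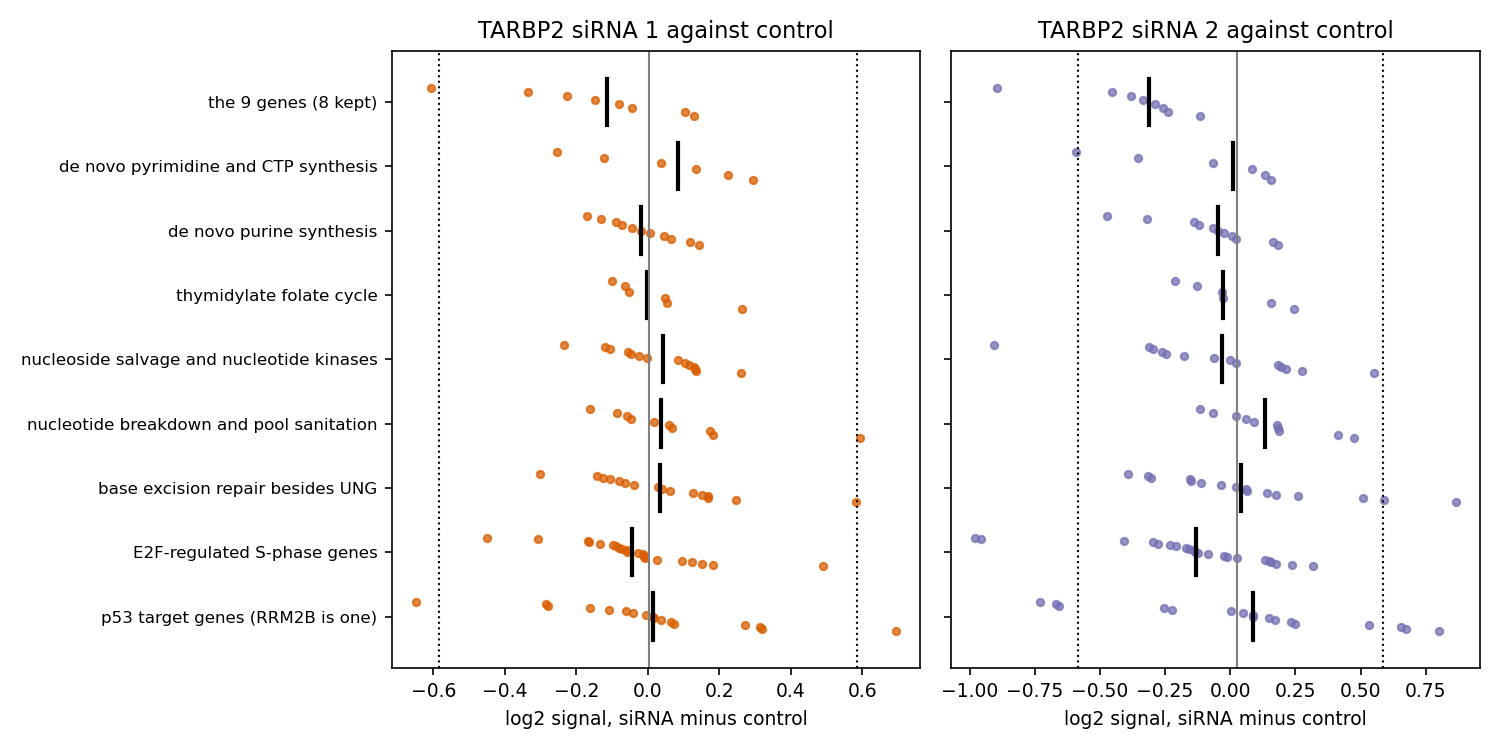
Difference from control (log2, siRNA array minus control array) of each tested gene, with 1 point per gene, for the 8 tested members and 8 other gene lists (6 of nucleotide metabolism and repair, E2F-regulated genes and p53 targets), with siRNA 1 at left and siRNA 2 at right. Black bars are list medians, the grey line is the median of all genes and dotted lines mark 1.5-fold. The members' medians are -0.11 and -0.31, and those of the E2F-regulated S-phase genes -0.04 and -0.13.

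Genes that E2F factors induce at the entry to S phase are given beside the members because RRM2, TYMS, TK1, DUT and UNG are known to be transcribed at that stage. All 22 were tested. Their medians were -0.04 with siRNA 1 and -0.13 with siRNA 2, with 16 and 15 of 22 below control (all genes 49.1% and 46%). GINS2, of the replicative helicase, was at -0.10 and -0.95. CCNE2, cyclin E2, was at -0.31 with siRNA 1 and, not above background with siRNA 2, at least 1.46-fold lower there. None passed (limma adjusted p = 0.9999 for each). Whether the cell cycle had a part in the members' differences was not tested.

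Targets of p53 are given because RRM2B is one. Over 17 genes their medians were 0.01 with siRNA 1 and 0.09 with siRNA 2, with 8 and 5 of 17 below control (all genes 49.1% and 46%). PHLDA3, which restrains AKT, stood at 0.70 and 0.80, and TP53INP1, a p53-induced nuclear protein, at -0.65 and -0.67, with a second TP53INP1 probe at a mean of -0.37. The list went both ways with each siRNA. The RRM2B probes did so with siRNA 1 alone, and with siRNA 2 both were below control (-0.38 and -0.11). The SV40 large T antigen that 293T cells carry is known to bind p53.

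RRM2 had the mean difference furthest from 0 among the 8 tested genes. Among 3281 genes with a mean signal within 1 log2 unit of it, the 5 whose pair of differences lay nearest to its own -0.61 and -0.45 were ZC3H4 (-0.58 and -0.41), CLDND1 (-0.66 and -0.42), FXR1 (-0.53 and -0.52), BBX (-0.64 and -0.56) and BLOC1S6 (-0.58 and -0.32). Likeness was the Euclidean distance over the pair of differences, 0.05 for ZC3H4 and 0.14 for BLOC1S6. It rests on 3 arrays and says nothing of shared function or control.

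The authors' deposited table of log fold changes, siTARBP2 over siControl with a base that its header does not state, gave negative values for all 11 accessions of these genes. The share of negative values over that whole table was not taken, so this count is a description only. It includes SAMHD1, which was not above background on any array. It also includes a single value for RRM2B (-0.12), whose 2 probes differed. Among the 11 accessions of these genes RRM2 was lowest in the authors' deposited table at -0.51, followed by UNG at -0.30 (NM_003362) and RRM1 at -0.16.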

How the data were processed

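Total RNA of 3 cultures was labelled with biotin and hybridised to Illumina BeadChips, per the labels' protocols. The deposited non-normalized table holds an average signal intensity and a detection p-value per probe and array, per the file headers. The authors also deposited normalized intensity values with 1 common distribution over the arrays, and a table of log fold changes, here treated as log2, with the base not given in its header. Per the submitters' processing notes lumi was used, and its version was not given in the sources used here.

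Raw intensities were background corrected and quantile normalized by limma 3.58.1 in R 4.3.3 (neqc, offset 16); this offset widens differences of dim probes. Probes were named from the platform annotation (30113 with 1 symbol, 8 with several, 17202 not listed). Per gene the probe with the highest mean was kept if its detection p was under 0.01 on at least 1 array, which left 11768 of 20046 genes. Knockdown (2 arrays) was compared with control (1 array) by lmFit and eBayes over all genes, two-sided, with a Benjamini-Hochberg threshold of 0.05, 1 residual and 6.78 prior degrees of freedom. The script was tested on simulated data with a smaller spread than that fitted here, which checks the code and not what these arrays can detect. Single siRNAs were compared by a rule of 1.5-fold with no test. Where a probe was not above background on an array, the fold is the brighter signal over the lowest detected signal on that array or the probe's own signal, whichever is higher, written as at least N-fold. Alternatives were other background corrections, normalizations, filters, probe rules and variance priors.

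The members and lists were chosen with earlier results of these data known. Named are all 9 genes, TARBP2, the 2 members of each list with the largest mean difference, and the 5 genes nearest to the member with the largest mean difference, with the exceptions stated. Promoter windows are RefSeq's, of GRCh38.p14. No genome build is named for the arrays. Gene names and symbols were checked against RefSeq by gene ID.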

Additional observations from a re-analysis of the deposited data

How the results depend on the processing

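Over 9 alternatives with a test, 70 of 72 values of the 8 genes kept their direction, and none passed (lowest limma adjusted p 0.9998). Many of these agreements were fixed in advance. The alternatives in filter, probes as features and variance prior kept the probe and the normalization, so the differences could not move. Averaging probes could not move genes with 1 probe. The second RRM2B probe, at a mean of 0.04, is not in this count. The 2 values that turned were the means of TYMS and TK1 with equal array medians (0.0326 and 0.036, the cause was not tested). That scaling also moved the median of the mean difference over all genes from 0.01 to 0.12. Relative to the medians of all genes, TYMS was then at 0.10 with siRNA 1 and -0.28 with siRNA 2, and TK1 at 0.12 and -0.30. As reported these were 0.13 and -0.31 for TYMS, and 0.10 and -0.28 for TK1. Leaving out 1 knockdown array gave TYMS from -0.29 to 0.13, TK1 from -0.26 to 0.10, RRM2 from -0.61 to -0.45 and UNG from -0.90 to -0.15, with no residual degrees of freedom and so no test and no count of calls. Genes passing the test numbered 0 as reported (204 at unadjusted p under 0.05), 1 with equal array medians and 1 with the trend and robust variance prior, in both cases TARBP2 (limma adjusted p 0.0382 and 0.00423). Members past 1.5-fold with siRNA 1 numbered 1 as reported and 0 with equal array medians. With siRNA 2 they numbered 1 as reported and 2 with every probe as its own feature, which counts UNG probes separately by construction. No paired analysis was possible because there is 1 control array and the labels give no pairing. Signal over background limits SAMHD1, the second DCK probe and the dimmest UNG probe, and the single control array enters every difference.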

Other observations

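The genes most like UNG were looked up after its values were seen, by the same distance as for RRM2. Among 1176 genes with a mean signal within 1 log2 unit, the nearest to its -0.15 with siRNA 1 and -0.90 with siRNA 2 were ST13, an HSP70 co-chaperone (-0.16 and -0.88), TUBB, a beta tubulin (-0.20 and -0.95), GINS2, of the replicative helicase (-0.10 and -0.95), ARF4, a small GTPase of Golgi transport (-0.14 and -0.72), and DNAJB6, a J-domain chaperone (-0.05 and -0.72). Of these, GINS2 is an S-phase gene of the lists above. No adjusted p of limma was under 0.05 (0.9999 for all 5), and the likeness rests on 3 arrays.

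DTYMK, the thymidylate kinase that follows both TYMS and TK1, was at -0.23 with siRNA 1 and -0.31 with siRNA 2, with a mean of -0.27 ± 0.25 (SE, n = 2 against 1; limma adjusted p = 0.9999). The mitochondrial salvage kinases TK2 and DGUOK were at -0.06 and -0.26, and at 0.00 and 0.21, in the same order of siRNAs. These 3 genes were named after their values were seen.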
